A study of Homo sapiens with 6 samples.

Results

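The PGC-1 coactivators and the transcription factors they work with make up the 6 genes described here, taken by name from 67051 gene identifiers in the count tables: PPARGC1A, PPARGC1B, PPRC1, NRF1, GABPA and ESRRA. Nascent transcription was measured by PRO-seq, in which RNA polymerases caught on isolated nuclei extend their transcripts with biotin-labelled nucleotides. The cells were SH-SY5Y, an established human neuroblastoma line used as a model of catecholamine neurons, grown in high glucose medium. There were 3 groups of 2 libraries: cells without treatment, cells given 0.1 mM MPP+ for 0.5 h, and cells given the same dose for 24 h. MPP+, the active metabolite of MPTP, is a poison of dopamine neurons that blocks mitochondrial complex I. Whether the libraries of a group are separate cultures is not stated in the labels, and the p-values below therefore measure only how far these libraries spread, which may be technical variation.

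PGC-1 proteins do not bind DNA themselves. They dock on transcription factors and bring histone acetyltransferases and the Mediator complex to the gene. NRF1 and GABPA bind the promoters of many nuclear genes for mitochondrial proteins, among them TFAM and other genes of the machinery that transcribes mitochondrial DNA, and ESRRA, an orphan nuclear receptor, acts on genes of oxidative metabolism. PPARGC1A is the member known for rapid induction by cold, fasting, exercise and energy stress, whereas PPRC1 is known as a coactivator that responds to serum and growth signals. The symbol NRF1 here means nuclear respiratory factor 1, not NFE2L1, whose protein is also called Nrf1.

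Assigned counts per library lay between 5983066 and 11707612. Counts on genes of mitochondrial DNA made up 0.144% to 0.149% of a library in untreated cells, 0.0275% to 0.0372% at 0.5 h and 0.0290% to 0.0334% at 24 h. Markers of adrenergic neuroblastoma summed to 2754 to 3604 CPM over the 6 libraries (CPM is a count scaled to a common library total), led by GATA3 with 1132 to 1338 TMM-scaled CPM in untreated cells. TBX2 was at 0 in all libraries, and TH, the gene of tyrosine hydroxylase, had at most 0.426 CPM in untreated cells. Markers of mesenchymal cells summed to 1380 to 1929 CPM, of which TWIST1 alone held 1286 to 1754 TMM-scaled CPM in untreated cells. Markers of other cell types summed to 157 to 192 CPM, of which EPCAM held 127 to 149 TMM-scaled CPM in untreated cells, and KRT5 was at 0 throughout.

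All 6 genes had enough counts to be tested. The counts followed the exonic length of genes (slope 0.47 of log2 counts on log2 exonic length, over 13391 protein-coding genes with at least 200 counts) more than the intronic length (slope 0.061). Levels between genes are compared as TMM-scaled CPM per kb of exonic length, with gene models of GENCODE 29 on hg38. The slope was below that of a proportional rise, so division by the full length favours short genes over long ones. Of the 6 genes PPARGC1B (12.9 kb) and PPARGC1A (10.9 kb) are the longest, and ESRRA (3.03 kb) and NRF1 (4.125 kb) the shortest. Levels per kb and the shares of genes set beside them carry this limit. The identifiers of the count tables carry later version numbers, so the authors' gene models may differ from these.

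Per exonic length the 6 genes lay far apart in untreated cells. NRF1 came first with 40.5 ± 0.456 CPM per kb (SD, n = 2), above 95.3% of the 22341 tested genes with a known length. PPRC1 followed with 18.04 ± 3.81 and ESRRA with 15.0 ± 1.93 CPM per kb. GABPA had 7.18 ± 0.311 and PPARGC1B 1.94 ± 0.126 CPM per kb. PPARGC1A came last with 0.355 ± 0.0152 CPM per kb, above only 2.25% of tested genes.

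Among neighbours in this order, NRF1 stood above PPRC1, ESRRA above GABPA, GABPA above PPARGC1B and PPARGC1B above PPARGC1A in 6 of 6 libraries, and the ranges over libraries did not overlap. PPRC1 and ESRRA were not separated per exonic length: PPRC1 was the higher of the pair in 4 of 6 libraries. The lowest level of PPRC1 (11.4 CPM per kb) lay under the highest of ESRRA (16.5). The order depends on the division by length. In CPM alone, PPRC1 (69.8 to 126) lay above ESRRA (36.7 to 49.9) without overlap, and ESRRA overlapped GABPA (35.9 to 41.9). Of the 3 coactivator genes PPRC1 thus had the highest level and PPARGC1A the lowest, and PPARGC1A was also the lowest of the 6 genes. Over the 6 libraries PPARGC1B averaged 6.30 times the level of PPARGC1A per exonic length.

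Of 20 partner factors and nuclear receptors, 19 had enough counts to be tested, with levels down to 0.545 CPM per kb (RXRB) in untreated cells. ESRRG, the paralog of ESRRA, had 37.9 CPM per kb in untreated cells, above ESRRA, and ESRRB had 3.56. GABPB1 and GABPB2, which carry the activation domain that GABPA lacks, had 10.6 and 8.76 CPM per kb, near the level of GABPA. YY1, a further activator of nuclear genes for mitochondrial proteins, had 9.31 CPM per kb, and TFAM, which packages and helps transcribe mitochondrial DNA, had 8.66. The plot of levels per exonic length shows these genes, except RXRB, side by side in the 3 groups.

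**Figure D1:**
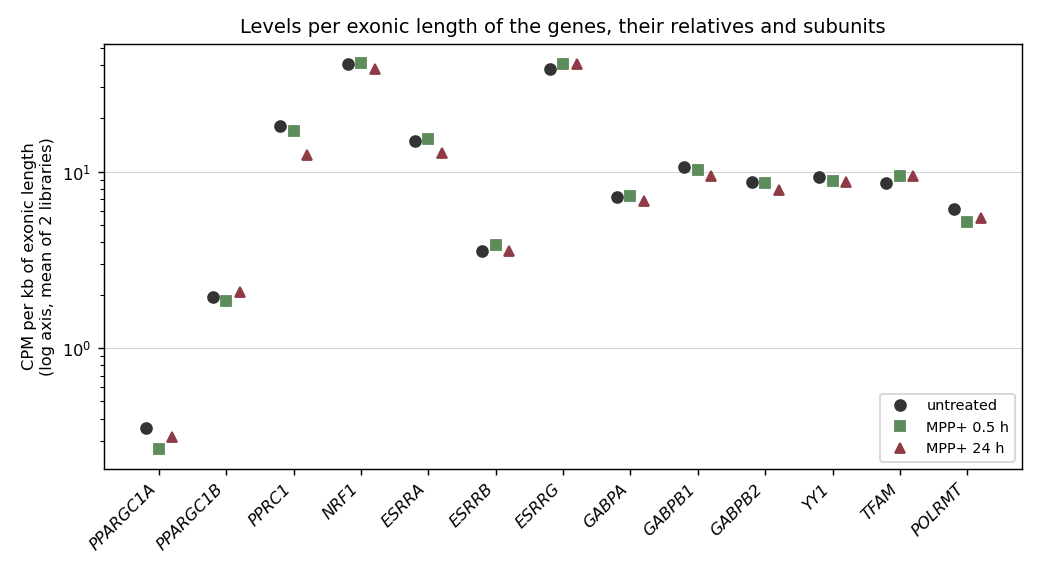
Mean TMM-scaled CPM per kb of exonic length (vertical log axis, n = 2 libraries per point) of the 6 genes, of ESRR and GABP relatives and of YY1, TFAM and POLRMT. Black circles are untreated cells, green squares 0.5 h and red triangles 24 h of MPP+; PPARGC1A lies lowest, at 0.355 in untreated cells, and NRF1 and ESRRG lie highest.

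Promoter windows of GABPA, ESRRA and PPRC1 are shown. GABPA and ESRRA are those of the 5 genes searched whose windows matched a binding motif of a factor among the 6 genes. PPRC1 is shown because it had the smallest p-value of the 6 genes. Sequences are from RefSeq (GRCh38.p14, plus strand, 5′ to 3′). The search covered 250 bases, on both strands, before the RefSeq starts held for PPARGC1A, PPARGC1B, PPRC1, ESRRA and GABPA. The only PPARGC1B window, chr5:149771690-149771939, lies inside its GENCODE 29 gene. The whole GABPA window, chr21:25734722-25734971, also lies inside the GENCODE 29 gene of GABPA. The GENCODE 29 starts of PPARGC1B (chr5:149730298), PPARGC1A (chr4:23904089) and GABPA (chr21:25734570) have no window here. The promoter of NRF1 was not analysed here. There were 4 motifs: CATGCGCA (the core of the NRF1 motif), CCGGAAGT (the ETS motif that GABP binds), TCAAGGTCA (bound by ESRRA) and TGACGTCA (bound by CREB, an activator of PPARGC1A). The motifs were chosen with these sequences in view, and none of the 4 overlaps another. Capitals mark matches. The ESRRA window is shown whole, PPRC1 up to the first base of its GENCODE 29 gene, and GABPA as the match with its flanks.

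GABPA, chr21:25734894-25734923: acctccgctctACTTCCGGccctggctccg

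ESRRA, chr11:64305274-64305523: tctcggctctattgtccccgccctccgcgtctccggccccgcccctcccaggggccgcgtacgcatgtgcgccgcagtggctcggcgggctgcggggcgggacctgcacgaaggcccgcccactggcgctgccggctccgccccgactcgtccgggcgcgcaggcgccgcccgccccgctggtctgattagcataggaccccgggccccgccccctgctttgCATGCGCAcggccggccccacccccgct

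PPRC1, chr10:102132790-102132993: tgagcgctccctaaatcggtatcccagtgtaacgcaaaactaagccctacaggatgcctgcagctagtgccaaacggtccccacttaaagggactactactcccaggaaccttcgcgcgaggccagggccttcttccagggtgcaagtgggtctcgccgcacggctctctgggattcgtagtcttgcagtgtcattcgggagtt

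The GABPA window held the ETS motif on the opposite strand, 67 to 60 bases before the start, where the spans of GABPA and the divergent gene ATP5PF overlap. The ESRRA window held the NRF1 core 28 to 21 bases before the start, and the ESRRA window was 78% G or C. Of all 35116 promoter windows, 3.42% held the ETS motif, 1.81% the NRF1 core, 0.319% the ERR motif and 1.65% the CREB motif. Among the 19656 windows of tested genes these shares were 4.71%, 2.30%, 0.219% and 2.18%. No other match was found in the windows of PPARGC1A, PPARGC1B, PPRC1, ESRRA and GABPA. A match describes letters in a window and does not show binding.

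The first comparison asked what the 6 genes did within 0.5 h of MPP+. Of the 6 genes, 0 passed the test (edgeR, adjusted p under 0.05), beside 17 of 23133 tested genes, or 0.0735%. At an unadjusted p under 0.05 the count was again 0 of 6, beside 2.46% of tested genes, and DESeq2 called 0 of 6 beside 0.0865%. Log2 fold changes were above 0 for 3 genes and below 0 for 3, with a median of -0.025, beside a median of 0.0082 over all tested genes. The 0.5 h libraries lay wholly below the untreated ones for 1 of the 6 genes, PPARGC1A, and wholly above for 0; over all tested genes this was 14.4% below and 12.9% above.

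The second comparison took 24 h of MPP+ against untreated cells. Again 0 of the 6 genes passed the test, beside 16 of 23133 genes, or 0.0692%, and DESeq2 called 0 of 6 beside 0.134%. At an unadjusted p under 0.05 there was 1 of 6, PPRC1, beside 8.10% of tested genes. Log2 fold changes were below 0 for 5 of the 6 genes, with a median of -0.14 beside 0.0023 over all tested genes, of which 49.6% lay below 0. For 4 of the 6 genes, PPRC1, NRF1, GABPA and ESRRA, both 24 h libraries lay below both untreated libraries, where 18.5% of all tested genes did, and for 0 they lay above, where 18.8% did.

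Between 24 h and 0.5 h, edgeR and DESeq2 each called 0 of the 6 genes and 0 of 23133 tested genes (0.00%). At an unadjusted p under 0.05 there was 1 of 6, again PPRC1, beside 6.42% of tested genes. Both 24 h libraries lay below both 0.5 h libraries for 3 genes, PPRC1, NRF1 and ESRRA (19.0% of all tested genes), and above for 0 (19.4%). The comparisons share libraries, so their values are given side by side and are not independent.

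**Figure D2:**
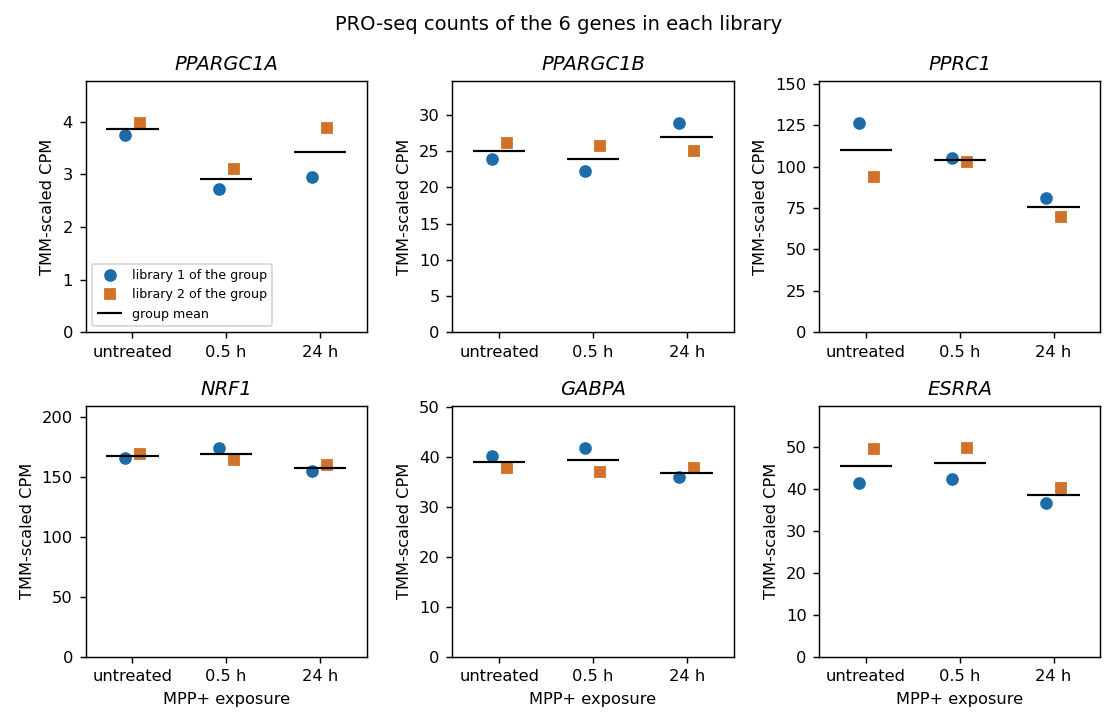
TMM-scaled CPM (vertical axes, from 0) of the 6 genes by group (horizontal axes), with 1 point per library and a bar at the mean of 2 libraries. PPRC1 has its lowest values in both 24 h libraries, 69.8 and 81.2, and NRF1 and GABPA stay within narrow ranges.

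PPRC1 (ENSG00000148840.11, chr10:102132994-102150331 on the plus strand) codes for PGC-1-related coactivator. Its counts were 878 and 800 in the untreated libraries, 1197 and 896 at 0.5 h, and 688 and 431 at 24 h. Scaled for depth these were 126 and 93.5 CPM, 105 and 103 CPM, and 81.2 and 69.8 CPM. Both 24 h libraries were lower than the other 4, while the 0.5 h libraries lay between the untreated ones, which differed from each other by 1.35 times. At 24 h the mean was 75.5 ± 8.13 CPM against 109.9 ± 23.2 CPM in untreated cells (SD, n = 2), which is -0.54 ± 0.15 on the log2 scale (SE of the edgeR fit, adjusted p = 0.522). The 95% interval of that ratio ran from 0.548 to 0.867 times the untreated level. It ranked 219 by p among 23133 genes in this comparison, with an unadjusted p of 0.00495.

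Against 0.5 h the log2 fold change of PPRC1 at 24 h was -0.46 ± 0.15 (adjusted p = 0.754), and at 0.5 h against untreated it was -0.079 ± 0.14 (adjusted p = 0.9996). The size of the 24 h difference depended on which untreated library was used. It was -0.31 without untreated replicate 1 (adjusted p = 0.871) and -0.75 without untreated replicate 2 (adjusted p = 0.136). PPRC1 passed the test at 24 h in 2 of 12 alternative fits, the one with no filter on low counts and the one with the replicate number as a block, and between 24 h and 0.5 h in 1 of 12, the block. With no filter the adjusted p at 24 h was 0.00877, with 245 genes called in all, and over the 12 alternatives it ran from 0.00181 to 0.944. DESeq2 gave -0.54 ± 0.19 (adjusted p = 0.732).

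The genes beside PPRC1 give local context. NOLC1, a nucleolar protein gene on the same strand, 2055 bases downstream by RefSeq spans, had a log2 fold change of -0.27 ± 0.12 at 24 h (adjusted p = 0.611) and -0.071 ± 0.12 at 0.5 h. LDB1, a LIM-domain binding cofactor on the opposite strand at the other side, whose RefSeq span overlaps that of PPRC1, had -0.11 ± 0.10 at 24 h (adjusted p = 0.845) and 0.24 ± 0.10 at 0.5 h (adjusted p = 0.9996). None of the exonic bases of PPRC1 lay in exons of another GENCODE 29 gene.

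PPARGC1A (ENSG00000109819.9, chr4:23755041-23904089 on the minus strand), the gene of PGC-1 alpha, had few counts. There were 26 and 34 in the untreated libraries, 31 and 27 at 0.5 h, and 25 and 24 at 24 h. The counting error alone was wide: the count of 26 had an exact Poisson 95% interval of 17.0 to 38.1. Scaled for depth the values were 3.74 and 3.98 CPM, 2.72 and 3.09 CPM, and 2.95 and 3.88 CPM. The 0.5 h libraries lay below both untreated ones, and the 24 h libraries overlapped both other groups.

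The log2 fold change of PPARGC1A was -0.42 ± 0.28 at 0.5 h (adjusted p = 0.9996) and -0.20 ± 0.28 at 24 h (adjusted p = 0.904). At 0.5 h the 95% interval ran from 0.487 to 1.15 times the untreated level, and at 24 h from 0.561 to 1.36 times. Both intervals hold levels below and above the untreated one, so the direction of a change was not settled. DESeq2 gave a wider error at 0.5 h, with -0.41 ± 0.49. Its counts fell short of the stricter filter on low counts, a mean of 50, so that fit has no value for it.

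PPARGC1B (ENSG00000155846.17, chr5:149730298-149855022), the gene of PGC-1 beta, had 23.9 and 26.2 CPM in untreated cells, 22.2 and 25.8 CPM at 0.5 h, and 28.9 and 25.1 CPM at 24 h. The groups overlapped in every comparison. It was the only one of the 6 genes with a log2 fold change above 0 at 24 h, 0.11 ± 0.16 (adjusted p = 0.900, 95% interval 0.848 to 1.38 times), and at 0.5 h it had -0.066 ± 0.15. The difference between its change and that of PPRC1 was not tested.

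NRF1 (ENSG00000106459.15, chr7:129611714-129757082) was the steadiest of the 6 genes. It had 166 and 169 CPM in untreated cells, 174 and 164 CPM at 0.5 h, and 155 and 160 CPM at 24 h. The 24 h libraries were the lowest of the 6, by a small margin, and the 0.5 h libraries lay on both sides of the untreated ones. Its log2 fold change was 0.018 ± 0.098 at 0.5 h and -0.089 ± 0.099 at 24 h (adjusted p = 0.870), with a 95% interval of 0.806 to 1.10 times at 24 h. Of the tested genes, 96.9% varied more over the 6 libraries, by the root mean square of their log2 CPM around the mean (0.054 for NRF1). NRF1 had 986 to 1986 counts per library, and the share was not taken among genes of like counts. Of its 4125 exonic bases, 112 (2.715%) lie in an rRNA pseudogene on the same strand. How far reads there bear on the values of NRF1 was not tested.

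GABPA (ENSG00000154727.11, chr21:25734570-25772460) codes for the DNA-binding subunit of GABP, also called NRF-2. It had 40.2 and 37.8 CPM in untreated cells, 41.9 and 37.0 CPM at 0.5 h, and 35.9 and 37.7 CPM at 24 h. The mean of the 24 h libraries lay below that of the untreated pair by less than the untreated libraries lay apart. The log2 fold change was 0.021 ± 0.12 at 0.5 h and -0.082 ± 0.12 at 24 h (adjusted p = 0.907, 95% interval 0.778 to 1.15 times).

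GABPA starts head to head with ATP5PF, a subunit of ATP synthase on the opposite strand, and 413 of its 5429 exonic bases (7.61%) lie in exons of ATP5PF. The strand setting of the counting is not given in the sources used here. Of 750 genes whose exonic bases all lie in exons on the other strand, 731 (97.5%) had 0 counts in all libraries, against 44.96% of genes without such overlap, and 14 had at least 100 counts. How far reads in the shared exons bear on the values of GABPA was not tested. ATP5PF had log2 fold changes of 0.041 ± 0.12 at 0.5 h and 0.074 ± 0.12 at 24 h (adjusted p = 0.910).

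ESRRA (ENSG00000173153.17, chr11:64305572-64316743) had 41.3 and 49.6 CPM in untreated cells, 42.4 and 49.9 CPM at 0.5 h, and 36.7 and 40.3 CPM at 24 h. The 24 h libraries were below the other 4, by less than the untreated libraries lay apart. In each group replicate 2 was above replicate 1. The log2 fold change was 0.016 ± 0.14 at 0.5 h and -0.24 ± 0.14 at 24 h (adjusted p = 0.711, 95% interval 0.679 to 1.05 times). Without untreated replicate 2 the 24 h value was -0.11, and without untreated replicate 1 it was -0.37. At its end, 284 of 3030 exonic bases (9.37%) lie in TRMT112, a methyltransferase cofactor gene on the opposite strand, which had -0.074 ± 0.14 at 24 h (adjusted p = 0.934).

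**Figure D3:**
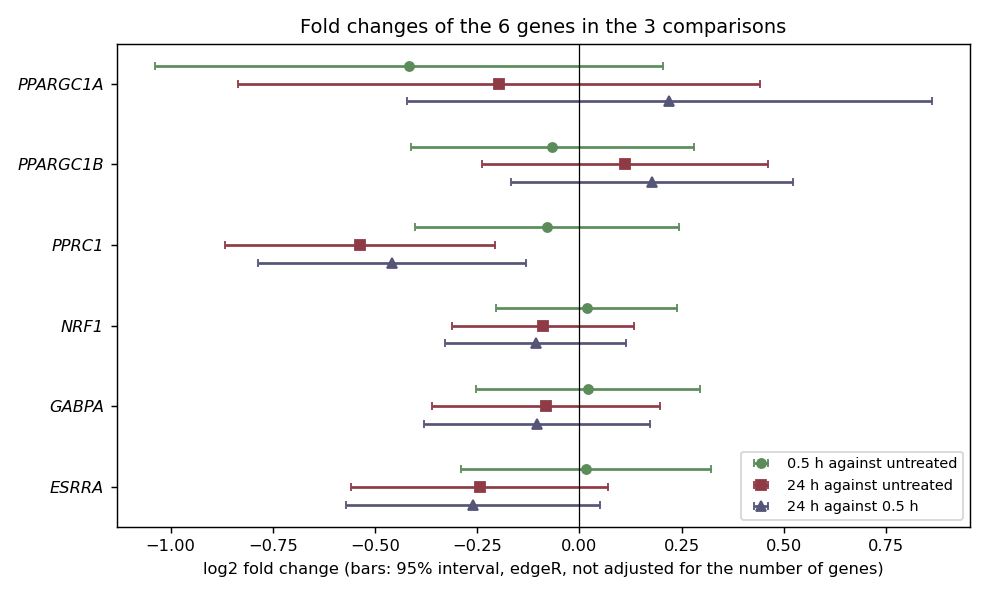
Log2 fold change (horizontal axis) of the 6 genes in the 3 comparisons, with 95% intervals of the edgeR fit that are not adjusted for the number of genes tested. Only the 2 intervals of PPRC1 that involve 24 h leave out 0, and those of PPARGC1A are the widest.

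The profiles over the 6 libraries were compared by the root mean square difference of log2 CPM after each gene was centred on its own mean. Among the 6 genes, NRF1 and GABPA were most alike, at 0.042, and PPARGC1A and PPRC1 least alike, at 0.36. The difference is not scaled for how much a gene varies. NRF1 and GABPA also varied least around their means (0.054 and 0.074), and PPRC1 and PPARGC1A most (0.27 and 0.20). Among 16650 other genes with a mean of at least 50 counts, the profiles nearest to PPRC1 were those of UNG (0.047) and UHRF1 (0.052). Those nearest to NRF1 were TBC1D25 (0.018) and RO60 (0.021), and those nearest to GABPA were SLC39A6 (0.014) and CSTF2 (0.024). ZNF696 (0.027) was among the nearest to ESRRA, and MFSD2B (0.015) and USP20 (0.029) were nearest to PPARGC1B. Nearest to PPARGC1A were EVI5L (0.060) and an unnamed gene (ENSG00000255753, 0.051). These distances describe 6 libraries and carry no test.

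Other genes of the pathway were taken as lists without the 6 genes. Of 20 partner factors and nuclear receptors, 19 were tested and 0 passed in any comparison with edgeR or DESeq2. Their median log2 fold change was -0.0064 at 0.5 h and 0.049 at 24 h, beside 0.0082 and 0.0023 over all tested genes. HCFC1, a cofactor that binds PGC-1 proteins and GABP, had 93.2 and 130 CPM in untreated cells, 95.8 and 101 CPM at 0.5 h, and 73.5 and 84.9 CPM at 24 h, each pair given from low to high. Its 24 h libraries were the lowest, and its log2 fold change at 24 h was -0.49 ± 0.15 (adjusted p = 0.553). PPARA, a nuclear receptor of fatty acid oxidation, had 0.25 ± 0.10 (adjusted p = 0.602). At an unadjusted p under 0.05 these were the only partners of 19 at 24 h, where 8.10% of all tested genes passed that level. MEF2D, with -0.28 ± 0.099 (adjusted p = 0.9996), was the only one at 0.5 h, where 2.46% of all tested genes did.

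The second subunits of GABP had values near that of GABPA at 24 h, with -0.16 ± 0.12 for GABPB1 and -0.15 ± 0.14 for GABPB2 (adjusted p = 0.769 and 0.835). Of the paralogs of ESRRA, ESRRG had 0.11 ± 0.14 and ESRRB 0.0084 ± 0.19 at 24 h (adjusted p = 0.894 and 0.996). The difference between the paralogs was not tested.

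Of 30 regulators of PGC-1 activity, such as AMPK subunits, SIRT1 and the CREB pathway, 29 were tested and 0 passed in any comparison. Their medians were 0.0097 at 0.5 h and -0.019 at 24 h. At 24 h, 3 of 29 had an unadjusted p under 0.05, beside 8.10% of all tested genes, and these were lower: the kinase gene AKT1 (-0.34 ± 0.14), the acetyltransferase gene CREBBP (-0.26 ± 0.10) and the CREB coactivator gene CRTC2 (-0.23 ± 0.095), with adjusted p = 0.602 for each. At 0.5 h there were 0.

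Downstream, 14 of 14 genes of mitochondrial transcription and mtDNA upkeep were tested and 0 passed. Their median was 0.055 at 0.5 h, with 3 of 14 below 0, -0.010 at 24 h, with 7 below, and -0.093 between 24 h and 0.5 h, with 11 below. Over all tested genes 47.9%, 49.6% and 49.5% lay below 0 in these comparisons. TFAM had 0.12 ± 0.10 at 0.5 h and 0.12 ± 0.10 at 24 h (adjusted p = 0.815 at 24 h), and POLRMT, the mitochondrial RNA polymerase, had -0.24 ± 0.16 and -0.18 ± 0.16 (adjusted p = 0.834 at 24 h). MTERF4, which acts on mitochondrial ribosome assembly, had 0.35 ± 0.15 at 0.5 h (adjusted p = 0.9996), the only one of the 14 with an unadjusted p under 0.05 in any comparison. Over all tested genes 2.46% passed that level at 0.5 h, 8.10% at 24 h and 6.42% between 24 h and 0.5 h.

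Of 44 genes of the respiratory chain, heme synthesis, import and fatty acid oxidation, 41 were tested and 0 passed in any comparison. Their median was 0.071 at 0.5 h, with 11 of 41 below 0, -0.0033 at 24 h, with 22 below, and -0.090 between 24 h and 0.5 h, with 28 below. The medians over all tested genes were 0.0082, 0.0023 and 0.0029, and the shares below 0 were 47.9%, 49.6% and 49.5%. The comparisons share libraries, so these counts are not independent. At an unadjusted p under 0.05, 2 of 41 were higher and 3 lower at 24 h, beside 8.10% of all tested genes in either direction, and 0 were at 0.5 h. The cytochrome c oxidase subunit gene COX7C had -0.40 ± 0.16, UQCRH of complex III -0.32 ± 0.13, CYCS, the gene of cytochrome c, -0.30 ± 0.13, the carnitine transferase gene CPT1A 0.29 ± 0.12 and the ADP/ATP carrier gene SLC25A4 0.26 ± 0.10 at 24 h (adjusted p from 0.595 to 0.607). Against 0.5 h, 3 of 41 were lower and 0 higher at that level, beside 6.42% of all tested genes: COX7C (-0.64 ± 0.16), COX6A1, of the same enzyme (-0.67 ± 0.26), and CYCS (-0.30 ± 0.13), with adjusted p from 0.754 to 0.768. The plot of the lists shows that the pathway genes spread on both sides of 0 at each time.

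**Figure D4:**
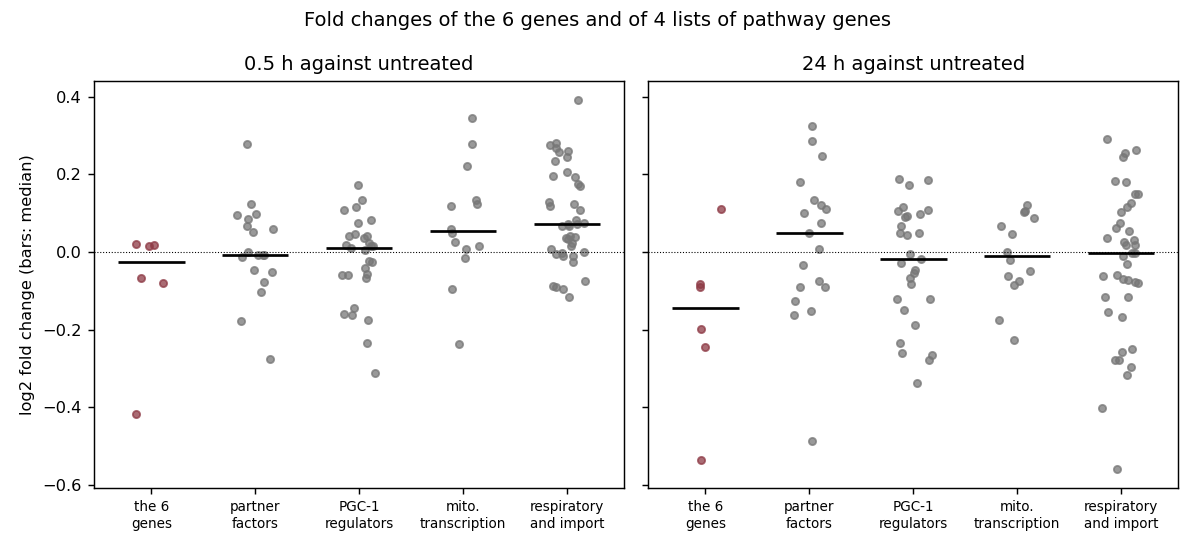
Log2 fold change against untreated cells (vertical axis) at 0.5 h (left) and 24 h (right) of the 6 genes and of the tested genes of 4 lists; each point is a gene and each bar a median. The median of the 6 genes is -0.14 at 24 h, with PPRC1 lowest at -0.54, and the medians of the 4 lists lie between -0.019 and 0.049 there.

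The genes that share names with these factors were read separately. NFE2L1 had log2 fold changes of 0.14 ± 0.11 at 0.5 h and 0.16 ± 0.11 at 24 h, and NFE2L2, the antioxidant factor called NRF2, had -0.054 ± 0.11 and -0.082 ± 0.12 (adjusted p = 0.903 at 24 h). KEAP1, the adaptor that targets NFE2L2 for degradation, had -0.31 ± 0.10 at 24 h (adjusted p = 0.563). None of the 4 genes of this list passed in any comparison.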

How the data were processed

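PRO-seq libraries of SH-SY5Y cells were compared between 3 groups of 2. The tools named in the submitters' processing notes are featureCounts 2.0.1, Bowtie2 2.4.2, cutadapt 1.16.5 and SAMtools 1.13, with the build hg38. The deposited files hold raw counts per gene, 1 library each; the authors' tables of differential genes were not used here. What strand setting, feature type or gene models the counting used is not given in the sources used here. Of 67051 identifiers, 60437 matched a symbol in the supplied table and 257 more in GENCODE 29. Counts were filtered with filterByExpr (23133 genes), scaled by TMM and fitted by group over the 6 libraries together (edgeR 4.0.16, R 4.3.3). P-values are two-sided, from the quasi-likelihood F test, with Benjamini-Hochberg adjustment over all tested genes and a threshold of 0.05. DESeq2 1.42.0 was an alternative. The script was tested on simulated data. Intervals cover counting error or the edgeR fit only, and PCR copies are not separated.

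Libraries of a group were not copies of each other: the chi-square of their counts divided by its degrees of freedom was 4.98 to 11.8. The 6 genes and the lists were chosen with earlier results of these data known. Named genes are the 6, up to 4 genes of smallest p per list and comparison (not all printed), the nearest genes with a value, and the 2 of most alike profile (some genes these rules name are not reported here); ESRRB, ESRRG, GABPB1, GABPB2, YY1, GATA3, TBX2, TH, TWIST1, EPCAM, KRT5 and, at 24 h, CYCS were added after their values were seen.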

Additional observations from a re-analysis of the deposited data

How the results depend on the processing

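The 12 alternatives, 11 for PPARGC1A, were other scalings, filters and tests, fits on the 2 compared groups alone, library sizes without mtDNA genes, a replicate block and leaving out each library. Of 213 alternative log2 fold changes of the 6 genes, 202 kept their sign. At 0.5 h, upper-quartile scaling gave -0.0039 for NRF1, -0.00061 for GABPA and -0.0046 for ESRRA. Leaving out 1 library at a time, the 0.5 h values ran from -0.29 to 0.15 for PPRC1, -0.11 to 0.15 for ESRRA, -0.072 to 0.10 for GABPA, -0.025 to 0.057 for NRF1 and -0.18 to 0.042 for PPARGC1B, and the 24 h values of PPARGC1A from -0.39 to 0.0071.

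With no filter on low counts edgeR called 66 genes at 0.5 h, 245 at 24 h and 73 between the times, against 17, 16 and 0, and 1 of the 6 genes, PPRC1, at 24 h. DESeq2 called 31 at 24 h. Without 1 library edgeR called 9 to 15 genes at 0.5 h and 8 to 13 at 24 h, with 9 without 0.5 h replicate 1, 8 without untreated replicate 1 and 10 without 24 h replicate 1. The cause of these shifts was not tested.

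Replicate numbers are shared between groups in the labels, which do not say that they mark a shared day or culture. The replicate deviations correlated by 0.503, 0.487 and 0.524 between the 3 pairs of groups over 16651 genes. With the replicate block 57 genes were called at 0.5 h, 685 at 24 h and 412 between the times, and 1 of the 6, PPRC1, at 24 h (log2 fold change -0.53, adjusted p = 0.00181) and between the times (-0.46, adjusted p = 0.0105). The block changed no other call of the 6 genes. Depth limits PPARGC1A most, with 24 to 34 counts per library.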
